A study of Mus musculus with 6 samples.

Results

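The genes of the endothelial glycocalyx described here were the 3 hyaluronan synthases Has1, Has2 and Has3, the hyaluronidases Hyal1 and Hyal2, the hyaluronan receptor Cd44, and the 4 syndecans Sdc1, Sdc2, Sdc3 and Sdc4. The genes were chosen by symbol. Each of the 10 symbols matched 1 row of the 22183 genes in the deposited count table. The glycocalyx is the sugar-rich coat on the luminal face of blood vessels, and it contributes to their barrier to fluid, solutes and leukocytes. Hyaluronan, a long unsulphated sugar chain, is extruded through the plasma membrane by the synthases, is held by receptors such as CD44, and is cut by hyaluronidases. Syndecans are transmembrane core proteins whose heparan sulphate chains bind growth factors, chemokines and matrix, and whose outer domains can be shed by proteases.

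RNA sequencing was performed on cells labelled as peritoneal endothelial cells (ECs) from 3 saline mice and 3 PD mice, with 1 library per mouse. All were wild type, and the study's methods describe normal male C57BL/6J mice aged 8 to 10 weeks. PD mice received Dianeal, a glucose-based peritoneal dialysis (PD) fluid, by daily intraperitoneal injection for 6 weeks, and saline mice received saline in the same way for 6 weeks as the sham group. The labels give magnetic sorting of CD31+ cells from peritoneal tissue, whereas the supplementary methods give a collagenase digest of mesentery from which CD31+ CD45- cells were collected by flow cytometry.

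The libraries held 21973426 to 26374292 counts on genes. Levels are given as CPM, the counts of a gene scaled to a common library total after TMM, as mean ± SD over n = 3 mice, and changes as log2 fold changes of PD mice over saline mice with their standard error (SE), tested by quasi-likelihood in edgeR with p adjusted by Benjamini-Hochberg over all 14005 genes tested. Levels of different genes are compared only as FPKM, the authors' values scaled to transcript length and library size. The endothelial label was only partly borne out by its markers. Pecam1, which encodes CD31, was at 145 ± 4.44 FPKM in saline mice and 158 ± 5.11 FPKM in PD mice, while Ptprc, which encodes CD45, was at 624 ± 30.2 FPKM and 392 ± 7.73 FPKM. All 12 endothelial markers were detected in both groups, and their summed level was 1197 to 1216 CPM in saline mice and 1910 to 2025 CPM in PD mice, with 11 of 12 higher. The libraries thus held much RNA of CD45+ cells, and values below are those of the sorted preparation rather than of ECs alone. In bulk RNA of this kind, fewer cells of a type and less RNA per cell cannot be told apart.

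Promoters are shown for the genes on which the results turn, namely Has1 with the largest rise of the 10 genes, Sdc3 with the largest rise of the syndecans, and Sdc4, the syndecan that fell. Each is the RefSeq window of 300 bases on GRCm38.p6, read 5′ to 3′ along the gene. Capitals mark matches to the GC box (GGGCGG), the CAAT box (CCAAT) and the cyclic AMP response element (CRE, TGACGTCA), searched on both strands. The TATA box (TATAAA) and the AP-1 motif (TGANTCA) were also searched.
Has1, chr17:17855139-17855438, minus strand: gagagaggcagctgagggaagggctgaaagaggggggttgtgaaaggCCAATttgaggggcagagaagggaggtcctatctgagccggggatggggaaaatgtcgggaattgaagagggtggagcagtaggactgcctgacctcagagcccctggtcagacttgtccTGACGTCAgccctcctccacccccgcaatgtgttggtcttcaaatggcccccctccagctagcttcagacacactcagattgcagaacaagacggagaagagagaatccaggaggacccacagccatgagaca
Sdc3, chr4:130792287-130792586, plus strand: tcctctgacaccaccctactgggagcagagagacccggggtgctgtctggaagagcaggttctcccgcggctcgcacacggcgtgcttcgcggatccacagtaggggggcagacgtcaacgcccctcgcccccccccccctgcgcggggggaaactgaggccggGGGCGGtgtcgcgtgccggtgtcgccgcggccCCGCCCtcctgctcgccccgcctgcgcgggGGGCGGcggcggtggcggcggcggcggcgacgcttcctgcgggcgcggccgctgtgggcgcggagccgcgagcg
Sdc4, chr2:164443139-164443438, minus strand: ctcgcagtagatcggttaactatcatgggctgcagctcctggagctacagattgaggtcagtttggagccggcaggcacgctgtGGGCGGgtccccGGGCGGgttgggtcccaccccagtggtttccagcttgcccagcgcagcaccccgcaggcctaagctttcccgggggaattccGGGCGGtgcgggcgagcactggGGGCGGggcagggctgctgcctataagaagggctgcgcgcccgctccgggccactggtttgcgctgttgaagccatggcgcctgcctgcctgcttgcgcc

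The Has1 window held a CRE 83 bases before the start site, a motif found in 1.79% of the 32851 promoters of the same length. It also held a CAAT box, as did 37.4% of promoters, and no GC box. The windows of Sdc3 and Sdc4 held 3 and 4 GC boxes, and 35.7% of promoters held at least 1. Neither a TATA box, present in 13.6% of promoters, nor an AP-1 motif, present in 7.81%, was matched in the windows of the 7 genes that had one (Has1, Hyal1, Hyal2, Cd44, Sdc1, Sdc3 and Sdc4). With 77.7% G and C, the Sdc3 window was richer in these bases than 97.9% of promoters. These matches describe letters in the windows only.

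Of the 10 genes, 9 passed the filter on low counts, 6 rose in PD mice, 1 fell, and 2 did not pass the test. Has1, Sdc3, Sdc2, Cd44, Sdc1 and Hyal2 were higher and Sdc4 was lower, while Hyal1 and Has3 missed the threshold. Across all tested genes, 31.1% were called higher and 27.8% lower, 58.9% in either direction, so a call in itself was common in these libraries. The 3 PD mice lay above the 3 saline mice in 7 of the 9 genes and below them in 1. Over all tested genes the groups were separated upwards in 34.0%, downwards in 31.6% and either way in 65.6%. The median log2 fold change of the 9 genes was 0.73, against 0.02 over all tested genes.

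**Figure D1:**
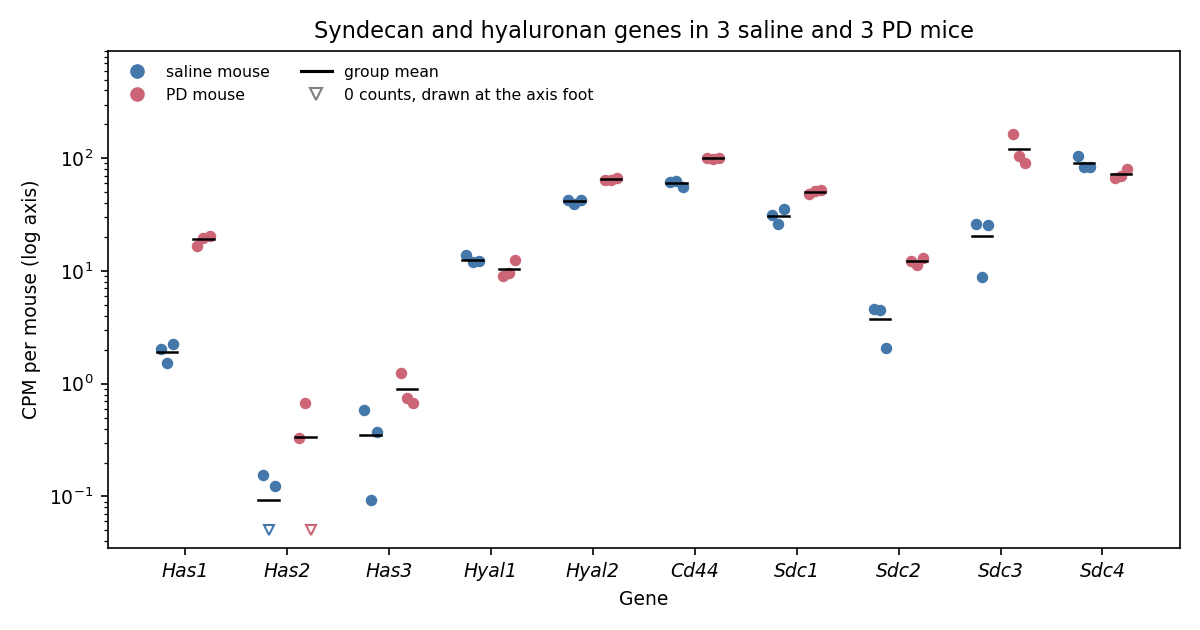
CPM of the 10 genes in each mouse on a log axis, with saline mice in blue, PD mice in red and black bars for group means. Open triangles stand for mice with 0 counts. Has1, Sdc2 and Sdc3 show the widest gaps between the groups, Hyal1 overlaps, and Sdc4 is the gene whose PD mice all lie below the saline mice.

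Has1 showed the largest rise. Has1 (ENSMUSG00000003665, chr17:17843323-17855205, minus strand) encodes a hyaluronan synthase of the plasma membrane. It was counted 52, 33 and 54 times in saline mice 1, 2 and 3 and 457, 470 and 455 times in PD mice 1, 2 and 3. The groups were far apart and the spread within each was small. Mean levels were 1.93 ± 0.368 CPM (saline) and 19.0 ± 1.99 CPM (PD), a ratio of 9.87. On the log2 scale the fold change was 3.29 (SE 0.17, 95% CI 2.91 to 3.67, adjusted p = 5.5e-08), above that of 98.6% of tested genes. With each mouse left out in turn it stayed between 3.15 and 3.40, and with counts scaled to the endothelial markers it was 2.60.

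Has2 and Has3, the other hyaluronan synthases, were near the limit of detection. Has2 (ENSMUSG00000022367, chr15:56665627-56694539, minus strand), the synthase required for heart development in the embryo, was counted 4, 0 and 3 times in saline mice and 9, 16 and 0 times in PD mice. It was not tested because of the filter, and a mouse of each group was at 0, which allows a level of up to 0.138 CPM in saline mouse 2 and 0.136 CPM in PD mouse 3. Of its exonic bases, 4.30% overlap the antisense gene Has2os. Without the filter its log2 fold change was 1.76 (SE 1.10, adjusted p = 0.203).

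Has3 (ENSMUSG00000031910, chr8:106870242-106884566, plus strand) was counted 15, 2 and 9 times in saline mice and 34, 18 and 15 times in PD mice. In CPM the groups did not overlap, with 0.0922 to 0.586 in saline mice and 0.680 to 1.25 in PD mice. The log2 fold change of 1.32 (SE 0.54, 95% CI 0.12 to 2.52) had an adjusted p of 0.0564 and missed the threshold. It passed with saline mouse 1 left out, at 1.91 (adjusted p = 0.0341), and with counts scaled to leukocyte markers, at 1.66 (adjusted p = 0.025). It was 0.90 (adjusted p = 0.155) without saline mouse 2, 0.99 (adjusted p = 0.219) without PD mouse 1 and 0.62 (adjusted p = 0.307) when scaled to the endothelial markers. Of the exonic bases of Has3, 5.52% overlap Chtf8 on the opposite strand, and reads of the pair cannot be told apart in a library without strand.

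As FPKM, Has1 made up 91.8% ± 5.69 of the summed synthase level in saline mice and 96.9% ± 1.07 in PD mice. The sum itself was 1.01 ± 0.243 FPKM in saline mice and 9.40 ± 0.658 FPKM in PD mice. Has1 was thus the main synthase transcript in every mouse, and its share ranged from 86.7% to 98.0%.

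Marker lists of other cell types moved in the same direction as Has1. All 8 mesothelial markers rose, with a summed level of 14.1 to 17.3 CPM in saline mice and 154 to 177 CPM in PD mice. All 8 fibroblast markers rose as well, from 38.0 to 48.8 CPM up to 318 to 372 CPM. No marker of either list was at 0 throughout a group. The part of these cells in the change of Has1 was not tested.

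The hyaluronidases differed from each other. Hyal2 (ENSMUSG00000010047, chr9:107567945-107572779, plus strand), a membrane-anchored enzyme that cuts long hyaluronan chains, was at 42.7, 39.3 and 42.2 CPM in saline mice and 64.0, 63.9 and 66.7 CPM in PD mice. The groups were separate, and the mice of a group lay close together. Hyal2 rose by a log2 fold change of 0.65 (SE 0.07, 95% CI 0.49 to 0.81, adjusted p = 2.8e-05). Scaled to the endothelial markers, it was -0.05 (adjusted p = 0.619), so the rise was no longer called relative to these markers.

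Hyal1 (ENSMUSG00000010051, chr9:107576927-107581710, plus strand), the lysosomal hyaluronidase, was at 13.8, 11.9 and 12.2 CPM in saline mice and 9.12, 9.69 and 12.6 CPM in PD mice. PD mouse 3 lay within the saline range, while the other PD mice lay below it. The log2 fold change of -0.27 (SE 0.15, 95% CI -0.60 to 0.05) did not pass the test (adjusted p = 0.135). It passed without PD mouse 3 at -0.42 (adjusted p = 0.0300), with a correction for GC content at -0.41 (adjusted p = 0.0304) and scaled to the endothelial markers at -0.97 (adjusted p = 5.6e-05), and it turned to 0.07 (adjusted p = 0.695) when counts were scaled to leukocyte markers. Of its exonic bases, 50.8% are shared with Naa80 on the same strand and 4.21% with Hyal3, so its counts depend on how shared reads were assigned.

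Cd44 (ENSMUSG00000005087, chr2:102811141-102901665, minus strand), the main hyaluronan receptor of many cell types, leukocytes included, rose. It was at 61.3, 63.3 and 56.0 CPM in saline mice and 101, 97.9 and 101 CPM in PD mice. All PD mice lay above all saline mice. The log2 fold change was 0.73 (SE 0.07, 95% CI 0.58 to 0.89, adjusted p = 8.6e-06), and it was 0.04 (adjusted p = 0.713) when scaled to the endothelial markers. The 8 general leukocyte markers summed to 10038 to 10547 CPM in saline and 8026 to 8140 CPM in PD mice, with 6 lower and 1 higher. Among leukocyte types, the 8 macrophage markers rose, from 2591 to 2736 CPM up to 10534 to 11384 CPM, and the 8 B cell markers fell, from 6244 to 6511 CPM down to 2977 to 2997 CPM. The part of these changes in the level of Cd44 was not tested.

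Among the syndecans, 3 rose and 1 fell. Sdc3 (ENSMUSG00000025743, chr4:130792537-130826319, plus strand), also known as N-syndecan from its abundance in nerve tissue, was counted 674, 192 and 623 times in saline mice and 4445, 2520 and 2012 times in PD mice. In CPM these were 26.3, 8.85 and 25.8 against 164, 106 and 91.2. Every PD mouse was well above every saline mouse, but saline mouse 2 and PD mouse 1 stood away from the rest of their groups. The means were 20.3 ± 9.94 CPM and 120 ± 38.3 CPM, with a log2 fold change of 2.56 (SE 0.33, 95% CI 1.83 to 3.29, adjusted p = 7.6e-05). Leaving out saline mouse 2 gave 2.21, and scaling to the endothelial markers gave 1.85.

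The exons of Sdc3 are 58.7% G and C, above 57.6%, the limit of the top 10% of tested genes. For that top 10%, the log2 level in each mouse was set against the mean of the other mice of its group. The median deviation was -0.27 in saline mouse 2, against 0.10 and 0.18 in saline mice 1 and 3. It was 0.15, -0.02 and -0.11 in PD mice 1, 2 and 3. The part of GC content in the spread of Sdc3 was not tested. The median log2 fold change was 0.47 in the top 10% and -0.23 in the lowest 10%. With a correction for GC content, the log2 fold change of Sdc3 was 2.18 and was still called. Antisense genes overlap 6.93% (Gm26716) and 0.801% (Gm12970) of its exonic bases.

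Sdc2 (ENSMUSG00000022261, chr15:32920723-33034935, plus strand), the syndecan first described in fibroblasts, was at 4.65, 4.52 and 2.07 CPM in saline mice and 12.2, 11.3 and 13.0 CPM in PD mice. The groups were separate, with saline mouse 3 lowest. The log2 fold change was 1.70 (SE 0.25, 95% CI 1.16 to 2.24, adjusted p = 0.00016), and it was 1.00 (adjusted p = 0.0014) when scaled to the endothelial markers. Sdc2 thus rose in PD mice under that scaling too, as did Has1 and Sdc3.

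Sdc1 (ENSMUSG00000020592, chr12:8771323-8793715, plus strand), the syndecan typical of epithelia and plasma cells, was at 31.5, 26.1 and 35.2 CPM in saline mice and 48.0, 51.0 and 52.5 CPM in PD mice. The groups did not overlap. Sdc1 rose by a log2 fold change of 0.70 (SE 0.11, adjusted p = 0.00024), and 0.01 (adjusted p = 0.945) when scaled to the endothelial markers. The summed level of 5 plasma cell markers was 1241 to 1371 CPM in saline mice and 2035 to 2389 CPM in PD mice, with 3 higher and 1 lower. Most of that sum was Jchain, at 1161 ± 59.9 and 2107 ± 175 CPM. Mzb1, the next largest part of it, fell from 122 ± 5.31 to 79.6 ± 3.85 CPM. Both are named after their values were seen. The 7 epithelial markers summed to 7.69 to 9.85 CPM in saline mice and 22.3 to 22.8 CPM in PD mice, with 4 higher. The part of either list in the level of Sdc1 was not tested.

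Sdc4 (ENSMUSG00000017009, chr2:164424247-164443887, minus strand), a widely expressed syndecan of focal adhesions that binds protein kinase C alpha, fell. It was at 106, 84.0 and 83.3 CPM in saline mice and 66.7, 69.5 and 81.1 CPM in PD mice. The groups did not overlap, but PD mouse 3 lay close to saline mice 2 and 3, and saline mouse 1 stood above the rest. The log2 fold change was -0.33 (SE 0.11, 95% CI -0.57 to -0.10, adjusted p = 0.0205). The call was lost without saline mouse 1 (-0.20, adjusted p = 0.120), without PD mouse 1 (-0.28, adjusted p = 0.0752) and without PD mouse 2 (-0.30, adjusted p = 0.0863). With counts scaled to leukocyte markers the value was 0.01 (adjusted p = 0.918), and scaled to the endothelial markers it was -1.03.

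**Figure D2:**
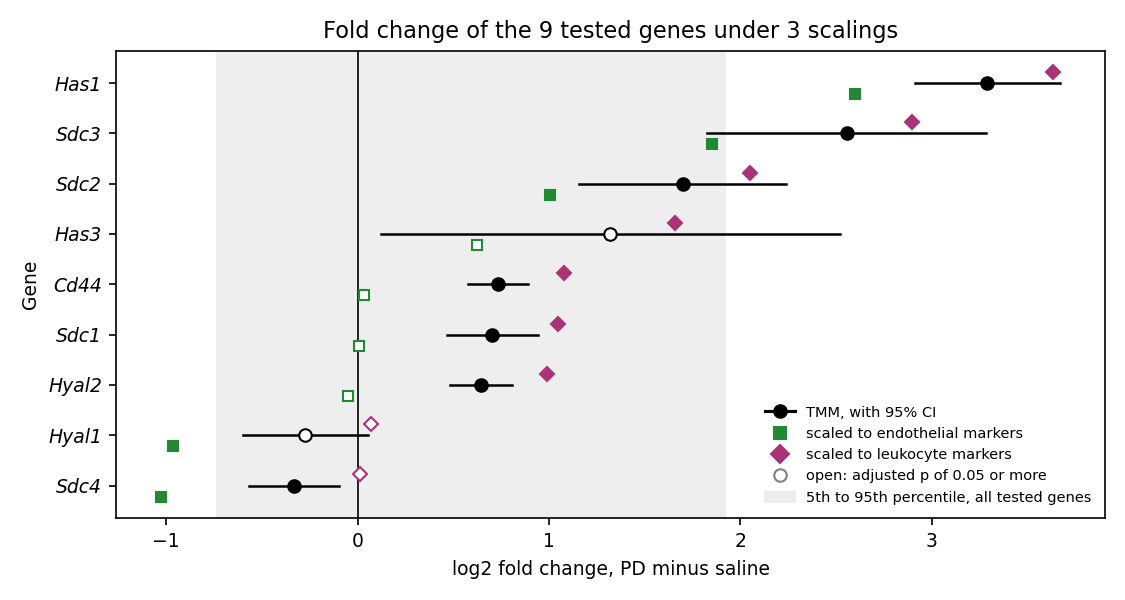
Log2 fold change of PD mice over saline mice for the 9 tested genes. Circles with bars are the TMM values with their 95% CI, squares and diamonds the values with counts scaled to endothelial or leukocyte markers, open symbols mark an adjusted p of 0.05 or more, and the grey band runs from the 5th to the 95th percentile of all tested genes (-0.73 to 1.92). Has1, Sdc3 and Sdc2 lie to the right of 0 under each scaling, Cd44, Sdc1 and Hyal2 sit near 0 relative to endothelial markers (Hyal2 just below it), and Hyal1 and Sdc4 sit near 0 relative to leukocyte markers, just above it.

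The choice of scaling moved all genes together. Scaling to the endothelial markers shifted the median log2 fold change of all tested genes by -0.70, and scaling to the leukocyte markers by 0.35. Such a scaling moves every gene alike, so the order of the 9 genes among all genes stays as it was, with 7 of them above the median of all genes. Under endothelial scaling 3 of the 9 were called higher and 2 lower (Hyal1 and Sdc4), against 1699 and 8971 of the 14005 tested genes.

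The composition of the syndecan transcripts differed between the groups. As FPKM, Sdc4 made up 71.2% ± 4.16 of the summed syndecan level in saline mice and 40.3% ± 5.85 in PD mice. Sdc3 made up 7.66% ± 3.32 and 32.8% ± 8.52. For both genes the ranges of the groups did not overlap, with 66.7% to 74.9% against 34.2% to 45.8% for Sdc4 and 3.90% to 10.2% against 25.5% to 42.1% for Sdc3. Sdc2 went from 2.06% ± 0.836 to 4.70% ± 0.392, and Sdc1, at 19.1% ± 2.61 and 22.3% ± 2.53, overlapped between the groups. The summed level was 51.9 ± 7.33 FPKM in saline mice and 73.9 ± 6.91 FPKM in PD mice. Shares within a mouse do not depend on how the libraries were scaled, and they were given no test.

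**Figure D3:**
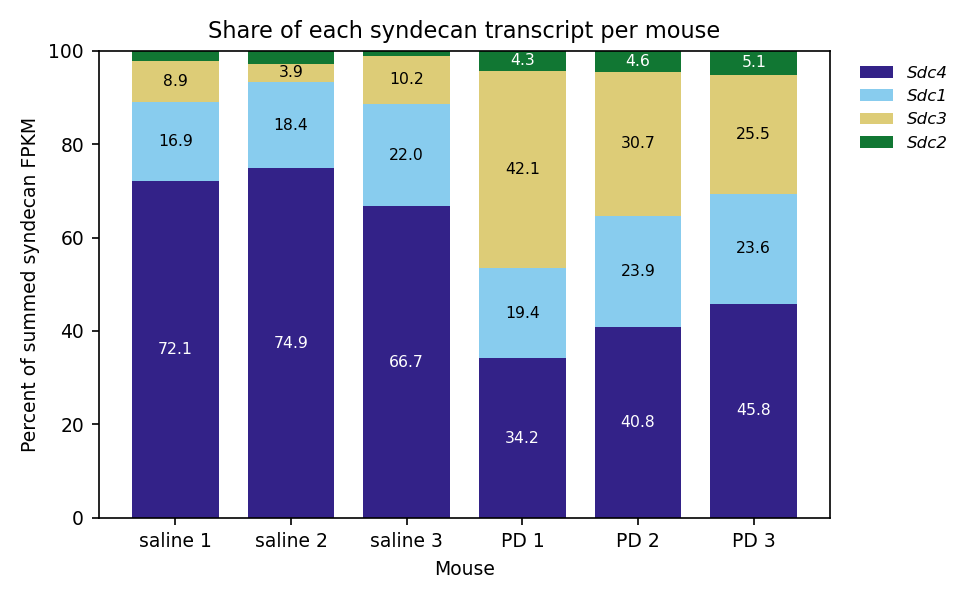
Share of each syndecan in the summed syndecan FPKM of each mouse, in percent. Sdc4 takes 66.7% to 74.9% in saline mice and 34.2% to 45.8% in PD mice, while Sdc3 takes 3.90% to 10.2% and 25.5% to 42.1%.

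In saline mice the mean levels ran, in falling order, Sdc4 at 36.9 FPKM, Hyal2 at 26.7, Cd44 at 16.1, Sdc1 at 9.86, Hyal1 at 4.65, Sdc3 at 4.08, Sdc2 at 1.06, Has1 at 0.919, Has3 at 0.0690 and Has2 at 0.0220 FPKM. Neighbours whose ranges over mice overlapped were Hyal1 and Sdc3, Sdc2 and Has1, and Has3 and Has2. In PD mice Hyal2 was highest at 41.7 FPKM, and Sdc4 at 29.5, Cd44 at 28.6 and Sdc3 at 24.6 FPKM followed, with each overlapping its neighbour. Below them came Sdc1 at 16.3, Has1 at 9.10, Hyal1 at 3.99, Sdc2 at 3.46, Has3 at 0.212 and Has2 at 0.0800 FPKM, of which Hyal1 and Sdc2, and Has3 and Has2, overlapped. By mean level Has1 thus passed Hyal1 and Sdc2, Sdc3 passed Hyal1 and Sdc1, and Hyal2 passed Sdc4. The starting order of Has1 and Sdc2, and of Sdc3 and Hyal1, was not clear, as their saline ranges overlapped. The ranges of Hyal2 and Sdc4 were apart in both groups.

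The other genes of these pathways were taken from 4 lists with 101 genes, of which 100 matched the table, 7 had no count in any mouse and 78 were tested. Of the tested genes, 47 (60.3%) were higher in PD mice and 5 (6.41%) lower, with a median log2 fold change of 0.72, against 31.1% and 27.8% of all tested genes. Scaled to the endothelial markers, 23 were higher and 30 lower, against 1699 and 8971 of the 14005 tested genes. The lists therefore lay above the bulk of genes under both TMM and this scaling. At most 23 of the 47 upward calls can hold under this scaling, which rests on the summed counts of the 12 endothelial markers. Pecam1, the marker with the most counts, had a log2 fold change of 0.13, below the median of 0.97 of that list. The count of calls thus depends on which markers are summed.

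For hyaluronan precursors, turnover and binding proteins, 14 of 21 tested genes rose (66.7%) and 1 fell (4.76%). The largest rises were those of Ptx3, Itih4 and Ambp, genes of secreted proteins, all from very low levels. Ptx3, the long pentraxin of hyaluronan-rich matrix, rose from 0.205 ± 0.175 to 2.11 ± 0.150 CPM (log2 fold change 3.31, SE 0.50, adjusted p = 0.00022). Itih4, of the inter-alpha-inhibitor family, was counted 0, 6 and 3 times in saline mice and 64, 53 and 49 times in PD mice (adjusted p = 0.00013). Ambp, the precursor of the bikunin chain of inter-alpha-inhibitor, was counted 0, 1 and 0 times against 23, 14 and 11 times (adjusted p = 0.00056), too few in saline mice to give a fold change. Hmmr, a hyaluronan-binding protein of the mitotic spindle, fell (-0.54, SE 0.14, adjusted p = 0.0064).

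Further hyaluronan genes are named after their values were seen. Lyve1, the endocytic hyaluronan receptor of lymphatic vessels and some macrophages, and Stab1, a scavenger receptor of sinusoidal endothelium and macrophages, rose from 34.4 ± 1.28 to 181 ± 5.72 CPM and from 9.49 ± 0.927 to 55.5 ± 5.40 CPM, with log2 fold changes of 2.39 (SE 0.07, adjusted p = 4.0e-10) and 2.55 (SE 0.11, adjusted p = 1.5e-08). Stab2, the related receptor that clears hyaluronan from blood and lymph, was at 5.88 ± 2.33 and 6.69 ± 0.502 CPM (adjusted p = 0.56). Beside them, the 5 lymphatic endothelial markers all rose, from 191 to 211 CPM up to 841 to 993 CPM. The 8 macrophage markers all rose too, from 2591 to 2736 CPM up to 10534 to 11384 CPM. The part of either list in the receptor levels was not tested. Ugdh, which makes the UDP-glucuronic acid used for hyaluronan and heparan sulphate, rose by a smaller amount (0.28, SE 0.09, adjusted p = 0.017). Hexa and Gusb, which encode lysosomal enzymes that degrade sugar chains, were higher (0.95, SE 0.06 and 0.89, SE 0.07).

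For the enzymes of heparan sulphate chains, 13 of 26 tested genes rose (50%) and 2 fell (7.69%), with a median log2 fold change of 0.27. Sulf2, an extracellular sulphatase that removes 6-O-sulphate groups, rose most (1.52, SE 0.12, adjusted p = 1.6e-06), followed by the 6-O-sulphotransferases Hs6st2 (1.09, SE 0.41, adjusted p = 0.039) and Hs6st1 (1.04, SE 0.26, adjusted p = 0.0059). Xylt1, a xylosyltransferase that starts the chain, fell (-0.83, SE 0.15, adjusted p = 0.00082), as did the linker enzyme B4galt7 (-0.21, SE 0.07, adjusted p = 0.028). Of the genes named after their values were seen, the other xylosyltransferase gene, Xylt2, was higher (0.57, SE 0.12, adjusted p = 0.0022), and so was Hpse, which encodes the heparan sulphate cutting enzyme heparanase (0.66, SE 0.08, adjusted p = 6.0e-05).

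The list of other core proteins held some of matrix and granules beside those of glycocalyx and basement membrane. Of its tested genes, 15 of 17 rose (88.2%) and the other 2 did not pass the test. Dcn, the small leucine-rich proteoglycan decorin of fibroblasts, rose from 60.1 ± 2.34 to 550 ± 43.4 CPM (3.19, SE 0.08, adjusted p = 8.0e-11). The glypican Gpc3 (2.52, SE 0.20, adjusted p = 1.5e-06) and the basement membrane collagen Col18a1 (2.52, SE 0.29, adjusted p = 3.3e-05) followed. The endothelial sialomucins Podxl (1.40, SE 0.10) and Emcn (0.90, SE 0.08) and the thrombin receptor thrombomodulin, Thbd (1.30, SE 0.08), also rose, and are named after their values were seen. Beside these, 11 of 12 endothelial markers rose with a median log2 fold change of 0.97, close to that of Emcn, and all 8 fibroblast markers rose with a median of 2.80. The part of these cells in the levels of the core proteins was not tested. The exceptions, also named after their values were seen, were Gpc2 and Srgn, the granule proteoglycan serglycin of blood cells. They were at 0.21 (adjusted p = 0.75) and -0.17 (adjusted p = 0.069).

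Among adaptors and sheddases, 5 of 14 tested genes rose (35.7%) and 2 fell (14.3%), a share of rises near the 31.1% of all tested genes. The risers were led by matrix metalloproteinases that can cut syndecans or CD44, namely Mmp9 (2.44, SE 0.10, adjusted p = 6.1e-09), Mmp2 (2.28, SE 0.14, adjusted p = 2.8e-07) and Mmp14 (2.18, SE 0.15, adjusted p = 5.0e-07). Macrophage markers (8 of 8), fibroblast markers (8 of 8) and neutrophil markers (4 of 5 tested) rose as well, and their part in these levels was not tested. The sheddases Adam10 and Adam17, named after their values were seen, were at -0.09 (adjusted p = 0.29) and 0.15 (adjusted p = 0.052). Prkca, encoding protein kinase C alpha, fell (-0.32, SE 0.09, adjusted p = 0.0097), as did Msn, encoding the actin linker moesin (-0.24, SE 0.06, adjusted p = 0.0039). Sdcbp, also named after its values were seen, encodes syntenin, a scaffold that binds syndecan tails. It was at 961 ± 40.5 and 1070 ± 80.5 CPM (0.16, adjusted p = 0.069).

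**Figure D4:**
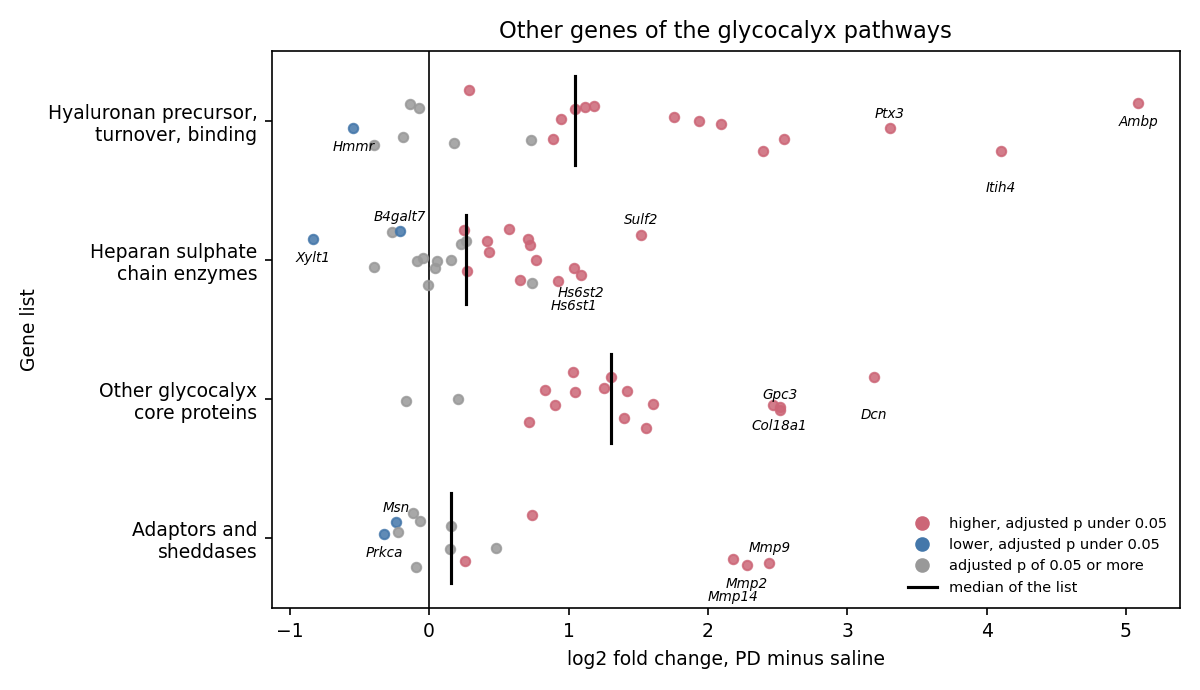
Log2 fold change of PD mice over saline mice, TMM scaled, for the 78 tested genes of the 4 lists, in red where higher, blue where lower and grey where the adjusted p was 0.05 or more, with a black bar at the median of each list. The medians lie at 1.04, 0.27, 1.30 and 0.15 from top to bottom, and the values of Ambp and Itih4 are fitted against saline counts near 0 and are no measure of their fold.

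The cell preparations differed in more than the genes above. Marker lists with higher summed levels in PD mice included neutrophils at 191 to 205 CPM against 16.9 to 20.2, mural cells at 455 to 503 against 281 to 299, mast cells at 330 to 386 against 216 to 229, and pancreatic acinar cells at 6507 to 7426 against 1.17 to 3.46 CPM. T cell markers were lower, at 1891 to 2092 against 2652 to 2734 CPM. The 8 immediate early genes, which respond to handling and digestion of tissue as well as to signals in the animal, were all higher, at 10913 to 11261 against 5591 to 6028 CPM. Their part in the levels of the syndecan and hyaluronan genes was not tested, and the make-up of the preparations and the treatment cannot be told apart in this design.

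**Figure D5:**
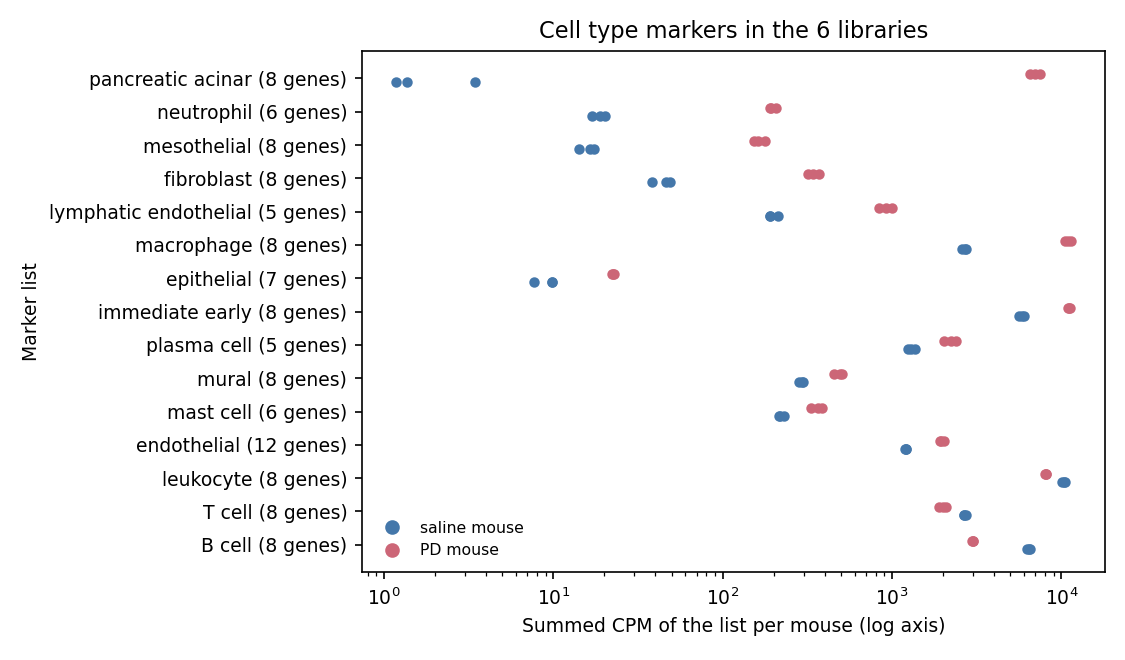
Summed CPM of each marker list in each mouse on a log axis, with saline mice in blue and PD mice in red and the number of genes in brackets. Leukocyte, T cell and B cell lists are lower in PD mice, the other 12 lists are higher, and the pancreatic acinar list differs most.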

How the data were processed

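Transcripts were measured in 3 saline and 3 PD libraries, grouped by their titles. The authors deposited raw whole-number counts per gene and mouse, FPKM values per mouse and group, and their own log2 ratio, p-values and FDR, of which the last 3 and the group means were not used. Per the labels, fastp 0.18.0, Bowtie2 2.2.8, HISAT2, StringTie and RSEM were used. The build, annotation and role of each tool are not given in the sources used here, so a count may be a rounded estimate. The library kit kept no strand. Counts were filtered with filterByExpr, scaled by TMM and tested with edgeR 4.0.16 (R 4.3.3), without a covariate, at an adjusted p of 0.05 over all genes. Standard errors and intervals came from edgeR's F statistic. Genes at 3 counts or fewer were taken as at the detection floor, which, like the depth, covers counting error only. Positions come from GENCODE M21 (GRCm38), to which 22128 of 22183 identifiers matched, and promoters from RefSeq, which held 7 of the 10 genes. The fit was tested on simulated counts. Alternatives were DESeq2 1.42.0, limma 3.58.1 (voom), other scalings, no filter, the replicate number as a block and leaving out each mouse. A GC correction and leukocyte scaling were chosen after seeing the data. Named are all 10 genes, Pecam1, Ptprc and, in each pathway list, the 3 called genes that rose most and the 3 that fell most, with separate groups, with any further gene marked in the text. The genes and lists were chosen with earlier results of these data known.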

Additional observations from a re-analysis of the deposited data

How the results depend on the processing

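Has1, Sdc2 and Sdc3 kept their direction and call under all 15 alternatives. Scaled to endothelial markers, 1699 tested genes were higher and 8971 lower in place of 4359 and 3887. Of the syndecan and hyaluronan genes 3 were higher and 2 lower, and of the pathway genes 23 were higher and 30 lower. Hyal2 changed sign to -0.050 without a call (adjusted p = 0.619 in edgeR). Scaled to leukocyte markers, chosen after seeing the data, 7417 were higher and 956 lower, and 0 of the 9 genes and 1 pathway gene were lower. Hyal1 and Sdc4 changed sign to 0.072 and 0.014 without a call (adjusted p = 0.695 and 0.918 in edgeR). With the GC correction, also chosen after seeing the data, 3931 tested genes were higher and 4290 lower. In that fit 2 of the 9 genes and 8 pathway genes were lower. The share of calls that were higher was 52.9% with limma-voom, 15.9% under endothelial scaling and 88.6% under leukocyte scaling. With each mouse left out in turn, the number of the 9 genes called lower was 0 to 2, against 3121 to 3685 of all tested genes. From counts per kilobase, Has1 was 94.96% of the synthases and Sdc2 5.30% of the syndecans in PD mice. The causes of these changes were not tested.

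The deviations of same-numbered saline and PD mice from their group means had correlations of 0.10, 0.04 and -0.17. Those of differently numbered mice ran from -0.27 to 0.23. So few mice cannot settle whether the numbers mark pairs or are names only. With the replicate number as a block, 4242 genes were higher and 3667 lower, and Has3 passed at 1.40 (adjusted p = 0.0489 in edgeR), as it did with limma-voom at 1.53 (adjusted p = 0.0409). With 3 mice per group, a change in Has2 or Has3 is limited by their few counts.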
